A study of Mus musculus with 1012 samples.

Results

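Prostanoids are lipid signals made from arachidonic acid, and 10 genes of their synthesis, reception and breakdown were followed across cell states and techniques: Ptgs1, Ptgs2, Ptges, Ptges2, Ptges3, Ptgis, Ptger2, Ptger4, Pla2g4a and Hpgd. They were taken by name from the 30452 features of the count table, where all 10 were present. The data were 1012 single-cell libraries of mouse cells. Of these, 296 were Live-seq libraries, made by enhanced Smart-seq2 from a cytoplasmic biopsy of a living cell, 554 were conventional Smart-seq2 scRNA-seq libraries of sorted whole cells, and 162 were Smart-seq2 libraries of whole cells from an experiment on the after-effects of sampling. The question for these genes was in which states they were transcribed, how they differed after lipopolysaccharide (LPS, from the outer membrane of bacteria, a strong stimulus of macrophages), and whether Live-seq and scRNA-seq gave the same picture.

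RAW cells are a mouse macrophage-like line. All scRNA-seq RAW cells and all but 12 of the Live-seq RAW cells belonged to RAW-G9, a single clone that carries an mCherry reporter under the Tnf promoter and an EGFP-Rela fusion. The others, 11 RAW_LPS cells and 1 RAW_Mock cell of batch 5Reseq, were wild-type RAW264.7. RAW_LPS cells received LPS, at 100 ng/ml by the study's methods. Live-seq samples of them were taken 4 to 5 h later, while the time for the scRNA-seq cells is not given in the sources used here. RAW_Mock cells are labelled as not treated and received the solvent PBS by the study's description. IBA cells are an immortalised brown preadipocyte line from young male C57BL6/J mice. ASPCs are primary adipose stem and progenitor cells from subcutaneous fat of female C57BL/6J mice aged 7 to 10 weeks, either uninduced (ASPC_Pre) or after 2 days in an adipogenic cocktail of dexamethasone, IBMX, rosiglitazone and insulin (ASPC_Post). In the sampling experiment, IBA cells were collected 1 h or 4 h after Live-seq, beside cells that had not been sampled (0 h). Nothing in the labels ties cells to separate cultures or animals, so that p-values measure the spread between batches.

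Counts were summed per batch and state, each sum of at least 3 cells was a replicate, and levels are given as CPM, counts scaled to a common total of the counts kept. This gave 3 sums each of scRNA-seq RAW_Mock, RAW_LPS and IBA, 2 of ASPC_Pre and 1 of ASPC_Post. In Live-seq there were 4 RAW_Mock, 5 RAW_LPS, 3 IBA, 2 ASPC_Pre and 1 ASPC_Post sums. Total counts per cell ranged from 38451 to 2671609, and a Live-seq library had a median of 3942 genes against 8436 in scRNA-seq. RAW cells on one side and IBA cells and ASPCs on the other were set apart by the macrophage and mesenchymal markers. The 10 macrophage markers summed to between 2934 and 34872 CPM in the RAW sums against between 0.694 and 607 in the IBA and ASPC sums of both techniques, and the 10 mesenchymal markers (collagens, Pdgfra, Dcn and others) to at most 5.63 CPM in RAW sums against between 3274 and 20183. Adipoq, a marker of mature adipocytes, had no counts in ASPC_Post in either technique, while the 6 adipogenic markers summed to 738 CPM in ASPC_Post and to between 124 and 569 in ASPC_Pre in scRNA-seq. The same 6 markers summed to between 320.2 and 1383 CPM in the scRNA-seq RAW sums, so that this list did not set ASPC_Post apart from RAW cells.

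Prostanoid synthesis starts when a phospholipase, above all cytosolic phospholipase A2 (Pla2g4a), frees arachidonic acid from membranes. The cyclooxygenases Ptgs1 (COX-1, the housekeeping form) and Ptgs2 (COX-2, the form induced in inflammation) convert it to prostaglandin H2. From there the terminal synthases Ptges, Ptges2 and Ptges3 lead to prostaglandin E2, and Ptgis leads to prostacyclin. Ptger2 and Ptger4 are the EP2 and EP4 receptors of prostaglandin E2, and Hpgd begins its breakdown. In macrophages the pathway is known for its induction by LPS, and in fat for its effects on lipolysis and adipocyte formation.

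In GRCm38, Ptgs2 (ENSMUSG00000032487) lies on the plus strand of chr1:150100031-150108227 and overlaps no annotated gene. Ptgs1 (ENSMUSG00000047250) lies on chr2:36230426-36252272, also on the plus strand, and shares exon bases with the antisense gene Gm43621. Ptges (ENSMUSG00000050737) is on the minus strand of chr2:30889471-30929863 and shares no exon base with another gene. Pla2g4a (ENSMUSG00000056220) is at chr1:149829618-149961290 on the minus strand, and Hpgd (ENSMUSG00000031613) at chr8:56294585-56321043 on the plus strand. Ptges2 (ENSMUSG00000026820) is at chr2:32395896-32405772 and Ptges3 (ENSMUSG00000071072) at chr10:128058954-128077272, both on the plus strand. The processed pseudogene Ptges3-ps, which could share reads with Ptges3, had between 10.7 and 30.9 CPM in the states. Ptgis (ENSMUSG00000017969, chr2:167191805-167240604, minus), Ptger2 (ENSMUSG00000037759, chr14:44988195-45003820, plus) and Ptger4 (ENSMUSG00000039942, chr15:5206661-5244187, minus) share exon bases with antisense genes. Because counting ignored strand, the values of these 3 genes and of Ptgs1 carry that uncertainty.

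The 250 bases upstream of the RefSeq start are shown for the cyclooxygenases and for Ptges, the members whose scRNA-seq levels differed most between RAW_LPS and RAW_Mock. All are from GRCm38.p6 and read 5' to 3' on the strand of the gene, at chr1:150099781-150100030 (plus) for Ptgs2, chr2:36230176-36230425 (plus) for Ptgs1 and chr2:30903298-30903547 (minus) for Ptges. Capitals mark matches to the motifs searched, of which TTNNGCAA (a wide C/EBP form) and a wide NF-kB form (GGG and CC with any 5 bases between them) were found here.
Ptgs2: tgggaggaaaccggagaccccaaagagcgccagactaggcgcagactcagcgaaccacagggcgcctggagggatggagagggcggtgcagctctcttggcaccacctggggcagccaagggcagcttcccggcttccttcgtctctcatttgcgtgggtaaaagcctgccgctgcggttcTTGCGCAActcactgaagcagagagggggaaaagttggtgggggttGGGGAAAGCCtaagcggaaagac
Ptgs1: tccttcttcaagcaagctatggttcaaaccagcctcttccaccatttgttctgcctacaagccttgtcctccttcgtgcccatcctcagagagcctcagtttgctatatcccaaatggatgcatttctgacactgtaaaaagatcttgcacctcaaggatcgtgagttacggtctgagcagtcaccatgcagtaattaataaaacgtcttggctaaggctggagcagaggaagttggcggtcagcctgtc
Ptges: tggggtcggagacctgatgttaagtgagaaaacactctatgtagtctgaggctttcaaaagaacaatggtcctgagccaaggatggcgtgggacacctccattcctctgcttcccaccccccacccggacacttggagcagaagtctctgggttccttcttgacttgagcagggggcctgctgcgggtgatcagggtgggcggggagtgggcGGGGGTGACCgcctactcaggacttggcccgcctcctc
In the Ptgs2 window, TTNNGCAA matched from 69 to 62 bases before the start and the wide NF-kB form from 23 to 14 bases before it. The Ptges window held the wide NF-kB form from 38 to 29 bases before the start, and the Ptgs1 window held none of the 8 motifs. Of all 32851 RefSeq windows of this length, TTNNGCAA on either strand was in 9.56% and the wide NF-kB form in 45.8%. The other motifs were TATAAA (12.4% of windows), CACGTG (6.02%), TGACGTCA (1.55%), TGACG (17.8%), GCGTGGGCG (0.536%) and GCGGGGGCG (2.57%), where TGACG is part of TGACGTCA. Among the 9 members with a window, which leaves out Ptgis, TATAAA matched only 1 of the 2 Pla2g4a windows and CACGTG only Ptges2. The wide NF-kB form also matched the windows of Ptger4 and Ptges3. A match is a run of letters and no measurement of binding.

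Per kilobase of exon, which allows genes to be compared, the levels of the members spanned the range from absent to abundant. Ptges3, which is also the HSP90 co-chaperone p23, was the most abundant member in each scRNA-seq state, with a mean between 115 and 248 CPM per kb, and was detected in every one of the 554 scRNA-seq cells. Ptger2 and Hpgd stood at the other end, without counts in most states. Neither passed the filter on low counts, so that 8 of the 10 members entered the tests across genes. Each of the other members had counts in every state. The means of Ptges and Ptgis were highest in ASPCs, while Ptges was also at 12.9 to 31.0 CPM in the scRNA-seq IBA sums.

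**Figure D1:**
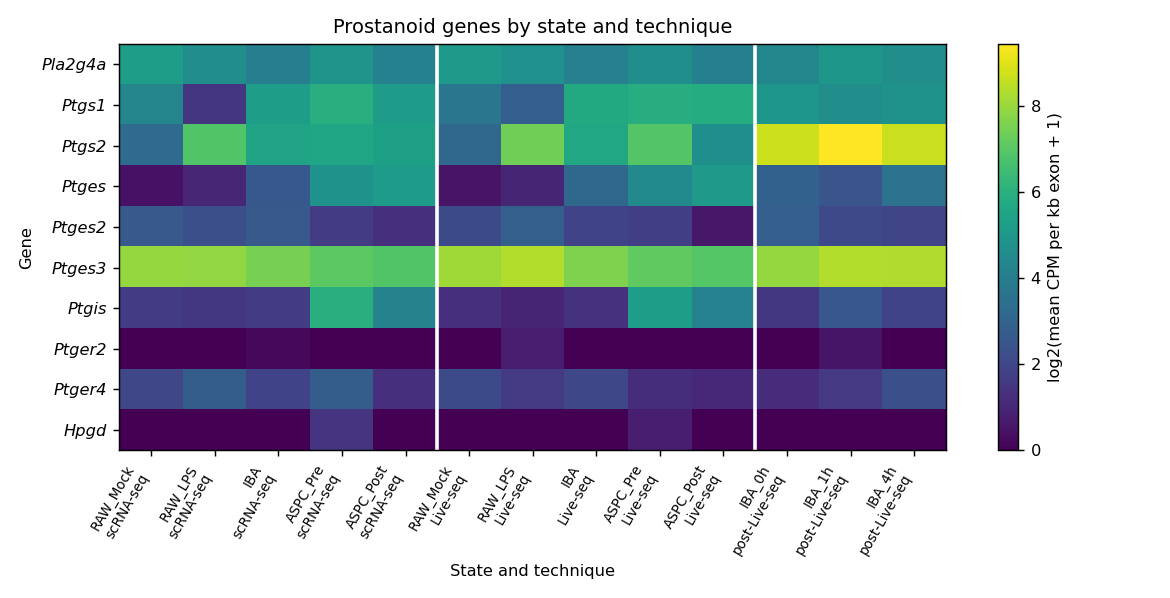
Level of the 10 members (rows) in each state and technique (columns), as log2 of the mean CPM per kilobase of exon over sums plus 1, with white lines between scRNA-seq, Live-seq and the post-Live-seq experiment. Ptges3 is bright throughout, Ptgs2 is bright in RAW_LPS and brightest in the post-Live-seq IBA cells, and Ptges and Ptgis are bright in ASPCs.

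Ptgs2 was higher in RAW_LPS than in RAW_Mock in every batch of both techniques that held both states, and Ptgs1 was lower in every scRNA-seq batch. Neither was called by the main test across genes. Ptgs2 was at 0.462, 16.2 and 103.4 CPM in the RAW_Mock sums of scRNA-seq batches 8_8, 9_1 and scRNA, and at 293, 448 and 846 CPM in the RAW_LPS sums of the same batches. Every RAW_LPS sum thus lay above every RAW_Mock sum, and within batches the ratio was 635, 27.7 and 8.19. The ratio of 635 divides by a level near 0. Only 2 of 16 RAW_Mock cells of batch 8_8 had Ptgs2 counts, at 3.21 and 4.33 CPM. Ptgs1 went the other way in scRNA-seq, with 130, 50.1 and 39.5 CPM in RAW_Mock against 1.45, 11.6 and 8.27 CPM in RAW_LPS. Here every RAW_LPS sum lay below every RAW_Mock sum, and RAW_Mock held 89.2, 4.30 and 4.78 times as much in the 3 batches. The 89.2 also divides by a low level. In RAW_LPS of batch 8_8, 2 of 15 cells had Ptgs1 alone and 1 had it beside Ptgs2. Of the 13405 genes tested, 6.12% had sums without overlap in the direction of Ptgs2 and 11.7% in the direction of Ptgs1.

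edgeR's quasi-likelihood test with batch as a term and Benjamini-Hochberg adjustment called none of the 8 members tested in scRNA-seq at an adjusted p under 0.05 and a change over 1 on the log2 scale. Across all genes it called 1.25%. The log2 fold change of Ptgs2 was 4.41 (SE 1.36, p = 0.00988, adjusted p = 0.173), that of Ptgs1 was -3.12 (SE 0.67, p = 0.00108, adjusted p = 0.0662) and that of Ptges was 1.56 (SE 0.41, p = 0.00417, adjusted p = 0.121). The calls depended on the method. DESeq2 called 3 members, Ptgs1 (adjusted p = 3.93e-05), Ptges (0.0219) and Ptgs2 (0.0234), and 5.3% of all genes. Over the 14 alternatives the adjusted p of Ptgs2 ranged from 0.00456 to 0.358 and passed in 4, and that of Ptgs1 from 3.93e-05 to 0.213 and passed in 5. Among 11 other LPS-response genes all 11 had a positive log2 fold change, with a median of 4.32, and only the NF-kB inhibitor Nfkbia was called (2.23, SE 0.37, adjusted p = 0.0317).

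In Live-seq the same contrast was seen for Ptgs2. The RAW_Mock sums held 0 CPM in batches 6 and 7, 63.2 CPM in 8_8 and 86.4 CPM in 9_4. The RAW_LPS sums held 379, 1479, 395 and 824 CPM in those batches, and 702 CPM in batch 5Reseq of wild-type cells. All 5 RAW_LPS sums were above all 4 RAW_Mock sums, as was the case for 0.797% of the 11669 genes tested. An exact two-sided permutation test of log2(CPM + 1), chosen after the values were seen, gave a difference of 6.26 (SE 1.84, n = 5 and 4) with p = 0.00794, the smallest of its 126 splits, and without batch 5Reseq a difference of 6.24 with exact p = 0.0286. The scRNA-seq sums, with n = 3 and 3, gave differences of 5.13 for Ptgs2 and -3.29 for Ptgs1, each with an exact p of 0.1, the smallest that this design allows. These 4 exact tests take the sums as independent of batch. When the signs of the differences within batches were flipped instead, the exact two-sided p of Ptgs2 was 0.125 in Live-seq (mean difference 6.24, SE 1.96, higher in 4 of 4 batches) and 0.25 in scRNA-seq (5.13, SE 1.35, higher in 3 of 3). Each is the smallest p that so few batches allow. Ptgs1 gave an exact p of 0.25 in scRNA-seq and 0.5 in Live-seq.

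The test across all genes in Live-seq gave Ptgs2 a log2 fold change of 7.18 (SE 2.13, p = 0.00675, adjusted p = 1), where the median of all genes was -0.41. It called 0 of 11669 genes by edgeR, or 0%, although 549 had an unadjusted p under 0.05, and DESeq2 called 457 genes. Ptgs2 was among the genes DESeq2 called (7.71, adjusted p = 6.47e-06), and it was called by edgeR when each cell was sampled down to 50000 counts (6.51, adjusted p = 0.00822). Batch 5Reseq, whose only sum has a batch term of its own, adds nothing to this contrast. Live-seq Ptgs1 stood at 13.4, 0, 79.6 and 94 CPM in RAW_Mock of batches 6, 7, 8_8 and 9_4. In RAW_LPS of those batches it stood at 0, 0.101, 87.4 and 8.70 CPM, and at 21.6 CPM in batch 5Reseq. These groups overlapped (exact permutation p = 0.54), and Ptgs1 was lower after LPS in 2 of 4 batches. Of the other batches, 7 was at or near 0 in both states, and in 8_8 all RAW_LPS counts came from 1 of 9 cells.

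**Figure D2:**
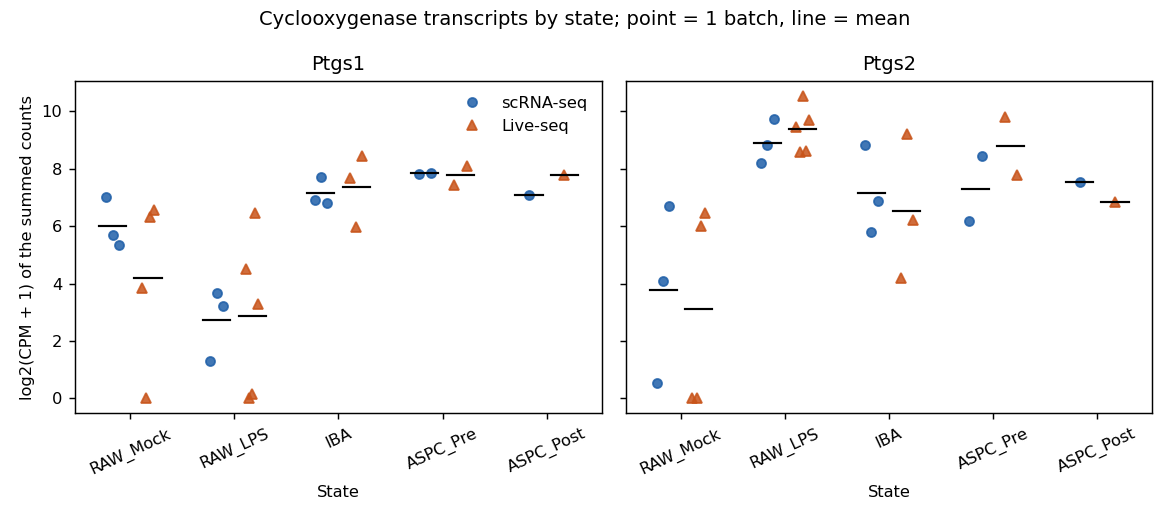
Ptgs1 (left) and Ptgs2 (right) in each state, as log2(CPM + 1) of the counts summed per batch. Circles are scRNA-seq sums, triangles Live-seq sums and lines the mean. The RAW_LPS points of Ptgs2 lie above all RAW_Mock points in both techniques, and those of Ptgs1 lie below the RAW_Mock points in scRNA-seq but not in Live-seq.

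The number of cells with Ptgs2 counts moved with its level. In scRNA-seq, 128 RAW_LPS cells had Ptgs2 counts, which is 85.9% of them with an exact 95% binomial interval from 79.3 to 91.1, and so had 21 RAW_Mock cells (13.4%, 8.47 to 19.7). With each cell sampled down to 50000 counts, which left out 1 RAW_Mock cell, the shares were 76.5% and 7.05%. In Live-seq it was detected in 38 of 50 RAW_LPS cells (76%, 61.8 to 86.9) and in 9 RAW_Mock cells (8.65%, 4.03 to 15.8), or 73.5% and 6.86% after sampling down. All counting intervals given here allow for counting error alone, because without molecular identifiers several reads can stem from one molecule. The binomial intervals take cells as independent and leave out the spread between batches. In scRNA-seq RAW_LPS, batch 8_8 had 1 cell with both cyclooxygenases and 8 with Ptgs2 alone, of 15 cells. The same numbers were 17 and 25 of 46 in batch 9_1, and 14 and 63 of 88 in batch scRNA. Ptgs1 was detected in 60.5% of scRNA-seq RAW_Mock cells and 26.8% of RAW_LPS cells, or 50% and 18.8% after sampling down. Both cyclooxygenases had counts in 8 RAW_Mock and 32 RAW_LPS scRNA-seq cells, while 87 RAW_Mock cells had Ptgs1 alone and 96 RAW_LPS cells had Ptgs2 alone.

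A few untreated cells held most of the Ptgs2 found without LPS. The 3 highest RAW_Mock cells held 72.7% of its counts in scRNA-seq and 95.8% in Live-seq, against 19.4% and 24% in RAW_LPS. The highest scRNA-seq RAW_Mock cell reached 1248 CPM, which was above the RAW_LPS median of 195.6 CPM. In Live-seq the RAW_LPS median was 664 CPM. The scRNA-seq RAW_Mock cells with the highest values, at 605, 933, 1008 and 1248 CPM, were all of batch scRNA. Those of Live-seq were of batches 8_8 (1021 and 1589 CPM) and 9_4 (832 CPM). As a share of the Ptgs1 and Ptgs2 level per kb, Ptgs2 made up between 97% and 99.4% of the scRNA-seq RAW_LPS sums and between 0.301% and 68.9% of the RAW_Mock sums. The Live-seq RAW_LPS sums had between 79.3% and 100%, and the 3 RAW_Mock sums with counts of either gene between 0% and 43.8%.

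**Figure D3:**
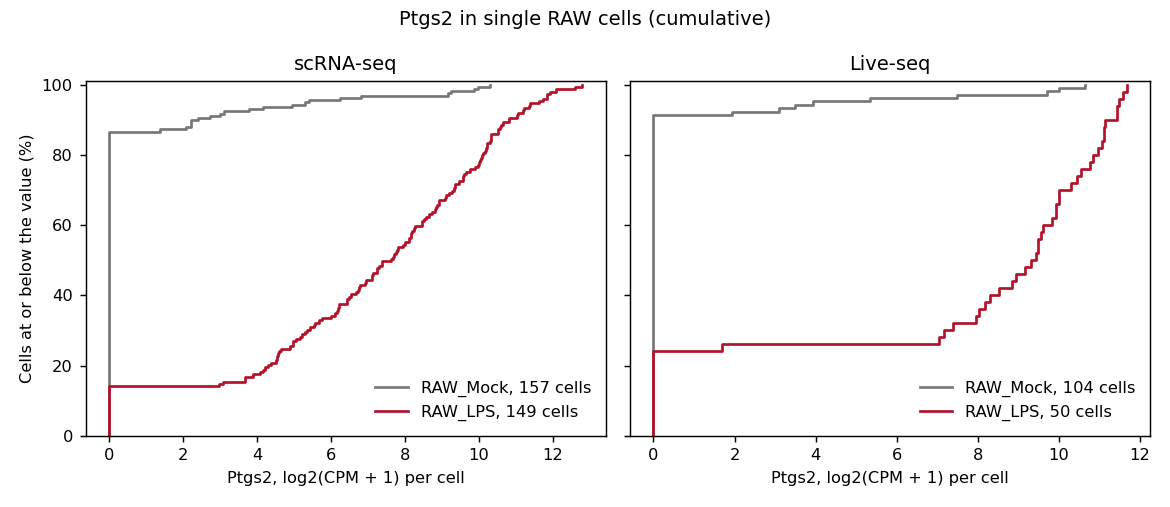
Cumulative share of RAW cells (%) at or below a Ptgs2 level, in log2(CPM + 1) per cell, in scRNA-seq (left) and Live-seq (right). Only 13.4% of scRNA-seq and 8.65% of Live-seq RAW_Mock cells lie above 0, against 85.9% and 76% of RAW_LPS cells.

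The other members had smaller fold changes in scRNA-seq. Ptges, the inducible microsomal synthase of prostaglandin E2, was at 0.924, 1.84 and 1.49 CPM in scRNA-seq RAW_Mock and at 1.21, 6.25 and 4.27 CPM in RAW_LPS. It was higher in RAW_LPS in 3 of 3 batches, but the groups overlapped. The receptor Ptger4 was at 12.2, 25.6 and 22.2 CPM in RAW_Mock and at 41.7, 37.1 and 39.5 CPM in RAW_LPS, without overlap (1.06, SE 0.54, adjusted p = 0.42). Live-seq did not show this order, with Ptger4 higher after LPS in 1 of 4 batches and lower in 2. Pla2g4a was lower in RAW_LPS in 3 of 3 scRNA-seq batches, at 85.7, 193.7 and 182 CPM against 146.5, 245 and 315 CPM, with groups that overlapped (-0.49, SE 0.42, adjusted p = 0.676).

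Ptges2 (-0.34, SE 0.41), Ptgis (0.10, SE 0.84) and Ptges3 (0.09, SE 0.19) had adjusted p of 0.797, 1 and 0.927 in scRNA-seq. Of the 8 members tested, 5 had a positive log2 fold change, with a median of 0.09 beside -0.01 over all genes. In Live-seq the fold changes of the 7 members other than Ptgs2 ran from -2.03 (Ptgis, SE 2.65) to 3.01 (Ptger4, SE 3.72), all with an adjusted p of 1. Differences of the size seen in scRNA-seq were not detectable with these errors. The difference of the LPS responses between the techniques, tested as an interaction, was 2.56 (SE 2.73) for Ptgs2 and 1.28 (SE 2.24) for Ptgs1, and all 8 members had an adjusted p of 1. It called 0 of 13412 genes by edgeR, or 0%, with 671 at an unadjusted p under 0.05.

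**Figure D4:**
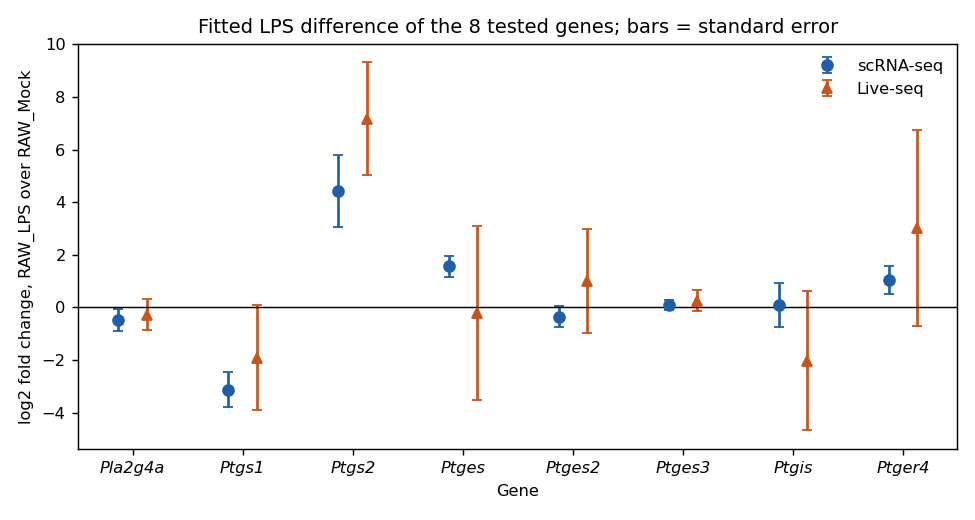
Fitted log2 fold change of RAW_LPS over RAW_Mock for the 8 genes tested, with circles for scRNA-seq, triangles for Live-seq and bars for the standard error. Ptgs2 lies highest in both techniques, at 4.41 and 7.18, Ptgs1 lies lowest in scRNA-seq at -3.12, and the Live-seq bars are the wider for every gene.

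Some single cells were sampled 2 times by Live-seq. In 4 RAW pairs the labels tie a library without treatment to one with LPS. Ptgs2 had 0 counts before in 4 of 4 pairs, and 131, 978, 981 and 1028 CPM afterwards. These libraries are part of the sums of batches 7 and 9_4 above and are no separate evidence. Of all RAW_Mock cells of those batches, 0 of 20 and 1 of 12 had Ptgs2 counts. Ptgs1 and Ptges had no counts in any of these 8 libraries. Ptger4 appeared after LPS in 2 of 4 pairs, at 66.4 and 268 CPM. Pla2g4a was lower afterwards in 3 pairs, among them a change from 546 to 94.2 CPM, and higher in 1, which went from 0 to 673 CPM. In the pair with the highest Ptgs2, both libraries carry the same extraction number in the labels, so that its order rests on the treatment label.

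Untreated RAW cells and untreated mesenchymal progenitors, that is the mean of IBA and ASPC_Pre, differed in Ptges and Ptgis, both lower in RAW_Mock, while Ptges2 and Ptges3 were not called. Ptges lay between 0.924 and 1.84 CPM in scRNA-seq RAW_Mock, between 12.9 and 31.0 CPM in IBA and at no less than 55.9 CPM in ASPC_Pre, without overlap. It was lower in RAW_Mock by a log2 fold change of -5.22 (SE 0.44, edgeR adjusted p = 3.33e-05). Ptgis was also lower (-2.80, SE 0.80, adjusted p = 0.0186), but its IBA levels of 0, 6.58 and 10.1 CPM overlapped with those of RAW_Mock, 1.62, 10.1 and 5.51 CPM, and only the ASPC_Pre levels of 153.9 and 158.3 CPM stood above them. No member was called higher and 2 of 8 were called lower, where 13.1% of all genes were called higher and 25.1% lower. The call of Ptgis was lost without batch 9_1 (adjusted p = 0.0618) and without batch scRNA (adjusted p = 0.101).

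The cyclooxygenases did not pass in that comparison. Ptgs2 had a log2 fold change of -3.73 (SE 1.41, adjusted p = 0.0563) and Ptgs1 of -1.48 (SE 0.57, adjusted p = 0.0601), and both were called in DESeq2, in the edgeR 4 fit and in 3 other settings, and also without batch 8_8. Ptges3 had 0.45 (SE 0.17, adjusted p = 0.0524). Pla2g4a (0.46), Ptges2 (0.47) and Ptger4 (-0.51) had adjusted p between 0.322 and 0.442. Live-seq called none of the 8 members, where 3.31% of all genes were called, and gave Ptges -3.58 (SE 2.84, adjusted p = 0.648). Its Ptges level was 0, 0, 6.64 and 0 CPM in RAW_Mock, between 9.95 and 45.9 CPM in IBA and 6.98 and 162.6 CPM in ASPC_Pre. The RAW_Mock sums were the lowest, but in batch 8_8 RAW_Mock and ASPC_Pre were close, at 6.64 and 6.98 CPM. Unlike in scRNA-seq, IBA and ASPC_Pre overlapped.

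IBA cells and ASPC_Pre cells differed most in prostacyclin synthase among the members tested. Ptgis was at 153.9 and 158.3 CPM in the scRNA-seq ASPC_Pre sums and at most 10.1 CPM in IBA, with a log2 fold change of -5.67 (SE 1.04, edgeR adjusted p = 0.0133). It was detected in 53 of 60 ASPC_Pre cells (88.3%) and 38 IBA cells (24.8%). Ptges was lower in IBA as well (-2.58, SE 0.41, adjusted p = 0.00793). These were 2 of 8 members called lower and none higher, where 7.61% of all genes were lower and 3.77% higher. Without batch 9_1 neither was called, with adjusted p of 0.124 for Ptgis and 0.229 for Ptges, while without batch 8_8 Ptgs2 (-3.17) and Pla2g4a (-2.14) were called too.

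Ptgs1 was among the more even members in these cells, at 226 and 231 CPM in ASPC_Pre and 119.6, 210.4 and 110.8 CPM in IBA (-0.81, SE 0.67, adjusted p = 0.455). Ptgs2 spread far more between batches of one state than between the states. It was at 449, 54.4 and 115.8 CPM in the IBA sums of batches 8_8, 9_1 and scRNA, and at 72.2 and 344 CPM in ASPC_Pre of 8_8 and 9_1. In batch 8_8 IBA was higher and in batch 9_1 ASPC_Pre was higher. In Live-seq Ptgs2 was at 17.3, 593 and 73.1 CPM in IBA and at 885 and 220 CPM in ASPC_Pre. Live-seq gave Ptgis 52.6 and 144.5 CPM in ASPC_Pre against 10.3, 0 and 1.66 CPM in IBA (-6.84, SE 3.18, adjusted p = 1) and called no member, where 0.0171% of all genes were called.

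Levels in Live-seq and scRNA-seq, averaged over RAW_Mock, RAW_LPS, IBA and ASPC_Pre, differed for the 8 members by log2 values from -0.80 (Ptger4, SE 0.95) to 0.53 (Ptgs2, SE 0.80), all with an edgeR adjusted p of 1. Of all genes 0.0447% were called. Detection per cell in RAW_LPS was lower in Live-seq for each of the 8 members, so that the genes named here are examples. In RAW-G9 cells after LPS, Ptgis was detected in 5.13% of Live-seq and 26.2% of scRNA-seq cells. Ptger4 was detected in 12% of Live-seq and 61.7% of scRNA-seq RAW_LPS cells, Ptges2 in 24% and 65.8%, and Pla2g4a in 56% and 97.3%. With cells sampled down the values were 8.16% and 47% for Ptger4, 18.4% and 36.2% for Ptges2, and 53.1% and 90.6% for Pla2g4a. The cause was not tested. Ptges3 stayed in 92% of Live-seq RAW_LPS cells.

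The adipogenic cocktail was given in 1 batch per technique, so that ASPC_Post and ASPC_Pre have no replicate check and no test. Ptgis was at 158.3 CPM before and 44.8 CPM after in scRNA-seq and at 144.5 and 43.9 CPM in Live-seq. This is a ratio of 0.283 (exact 95% counting interval 0.262 to 0.306) and 0.304 (0.279 to 0.330). Pla2g4a had ratios of 0.405 (0.385 to 0.427) in scRNA-seq, where it was at 107.3 CPM in ASPC_Post, and 0.441 (0.416 to 0.468) in Live-seq, where it was at 229 CPM in ASPC_Pre. Ptgs2 had ratios of 0.540 and 0.519, and Ptgs1 of 0.590 and 0.798. Ptges had ratios of 0.867 and 0.794, and Ptges3 of 0.951 and 0.851.

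Hpgd was counted in no ASPC_Post cell of either technique, against counts in 2 of 44 scRNA-seq ASPC_Pre cells (4.44 CPM) and 1 of 43 Live-seq ASPC_Pre cells (2.51 CPM) of the same batches. Ptges2 had a ratio of 0.930 (0.737 to 1.17) in scRNA-seq and of 0.221 (0.153 to 0.311) in Live-seq. Ptger4 was lower in scRNA-seq (0.580, 0.481 to 0.697) and not in Live-seq (1.18, 0.892 to 1.56). In all, 8 members were lower in ASPC_Post in both techniques, and 7 when each cell was given equal weight. The 8 include Hpgd, and Ptges2 and Ptges3 with scRNA-seq ratios of 0.930 and 0.951. The share of all genes that were lower in both techniques was not counted, so that the number says nothing particular about the members. In 9 ASPC cells sampled 2 times by Live-seq, Ptgis was lower in the later, induced library in 8 and absent from both in 1. Ptges3 was also lower in 8, from a median of 294.4 to 158.2 CPM with 3 of the later libraries at 0, and higher in 1. Ptgs1 was lower in 7 of these pairs, and Pla2g4a in 5 with no counts in either library of the other 4.

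**Figure D5:**
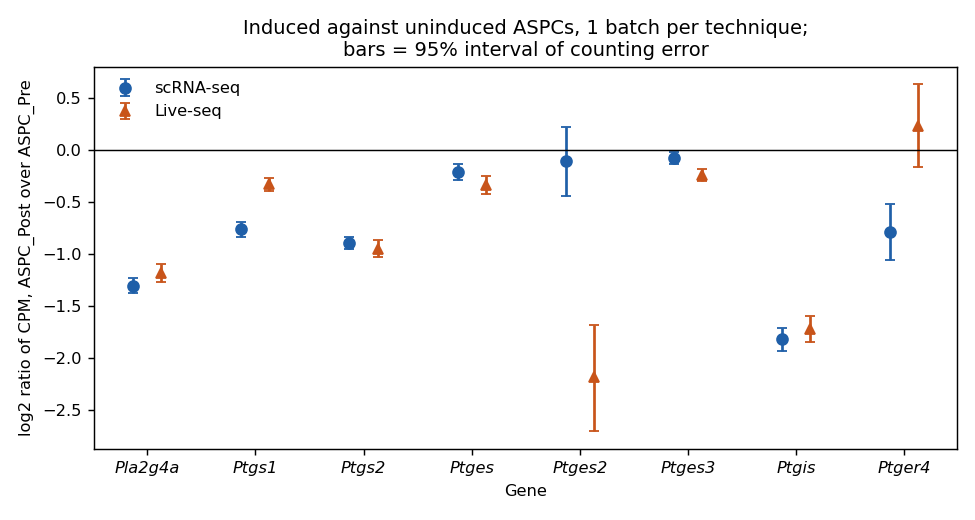
Ratio of CPM in ASPC_Post over ASPC_Pre on the log2 scale, by gene, in scRNA-seq (circles) and Live-seq (triangles), 1 batch each, with 95% intervals of counting error. Ptgis and Pla2g4a lie well below 0 in both techniques, and Ptges2 and Ptger4 differ between them. Hpgd and Ptger2, at 0 in one of the groups, are not drawn.

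IBA cells of the sampling experiment, all of 1 batch, stood out in Ptgs2. The level was 1918 CPM in the 70 unsampled cells, 3169 CPM in the 49 cells taken 1 h after Live-seq and 1855 CPM in the 43 cells taken after 4 h. The other scRNA-seq IBA sums were between 54.4 and 449 CPM, so that cells never sampled were also high here, and batch and experiment cannot be told apart. Against the unsampled cells the ratio was 1.65 (counting interval 1.63 to 1.67) at 1 h and 0.967 (0.953 to 0.981) at 4 h. Ptgs2 was detected in 68 of 70, 49 of 49 and 43 of 43 cells, and the median cell held 1313, 2515 and 1202 CPM. With 1 batch there is no test of these differences.

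Among the other members of that experiment, Pla2g4a had ratios to the unsampled cells of 1.61 at 1 h and 1.28 at 4 h, and Ptges3 had 537, 719 and 704 CPM at 0 h, 1 h and 4 h. Ptger4 had 8.56, 12.8 and 26.2 CPM, a ratio of 3.06 (2.59 to 3.63) at 4 h, with 58% of its counts in 3 cells. Ptges2 was lower at both times, with 30.5, 16.5 and 14.6 CPM. Ptgs1 was at 115.4, 94.9 and 104.8 CPM, and its ratio of 0.908 at 4 h became 1.14 with cells sampled down. Ptges was at 26.1, 18 and 40.9 CPM and Ptgis at 4.92, 12.5 and 7.10 CPM. In all, 4 members were higher at both times, and 3 with cells sampled down, when the 4 h ratio of Ptgis was 0.863. The share of all genes higher at both times was not counted. Of the 4 h counts of Ptgis, 92% were in 3 cells.

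The receptor Ptger2 and the catabolic enzyme Hpgd were near or at 0. Ptger2 had no counts in any RAW_LPS or RAW_Mock cell of scRNA-seq, which allows at most 0.0478 CPM in RAW_LPS and 0.0467 CPM in RAW_Mock at 3 counts over the state. It was found in 12 scRNA-seq IBA cells (7.84%) at 0.208, 1.37 and 0.682 CPM in the 3 sums. In Live-seq its only counts were 90 reads in 2 of 11 wild-type RAW_LPS cells, or 17.3 CPM, while the 39 RAW-G9 RAW_LPS cells had none. Hpgd was found in 3 of 60 scRNA-seq and 1 of 61 Live-seq ASPC_Pre cells, and in no other state.

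In order of mean CPM over sums, the states ran from ASPC_Pre over IBA, ASPC_Post and RAW_Mock to RAW_LPS for Ptgs1 in scRNA-seq, from 228 ± 3.62 (SD, n = 2) to 7.12 ± 5.19 (SD, n = 3). The neighbours IBA (from 110.8 to 210.4, n = 3), ASPC_Post (136, n = 1) and RAW_Mock (73.1 ± 49.2, SD, n = 3) lay within their spread. For Ptgs2 the order began with RAW_LPS (529 ± 285, SD, n = 3) and ended with RAW_Mock (40.0 ± 55.5, SD, n = 3), and the 3 states between them, ASPC_Pre (207.9 ± 191.9), IBA (206.5 ± 212.4) and ASPC_Post (185.5, 1 sum), did not differ beyond their spread. Ptges3 had RAW_Mock (551 ± 82.9) and RAW_LPS (533 ± 10.1) first, then IBA (402 ± 47.4), ASPC_Pre (291 ± 33.3) and ASPC_Post (255, 1 sum). Ptges2 had RAW_Mock (26.5 ± 9.03) and IBA (26.4 ± 3.44) at the top and ASPC_Post (7.37, 1 sum) at the bottom.

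The genes whose scRNA-seq levels followed a member most closely over the 12 sums were sought by Pearson correlation of log2(CPM + 1), as a description over sums that share batches. For Ptgs2 they were Slc12a4 (r = 0.92), Rap2c (0.89) and Rnf14 (0.89), with 0.26, 0.23 and 0.59 over the 15 Live-seq sums. For Ptgs1 they were Tmem218 (0.97), Ripor1 (0.96) and Kat2b (0.95), with 0.67, 0.44 and 0.44 in Live-seq. Synpo2 (0.98 and 0.81 in Live-seq) and Mcfd2 (0.98 and 0.81) were nearest to Ptges, Cox4i2 (0.93 and 0.11) to Ptgis, and Shmt2 (0.98 and 0.47) to Ptges3. For Pla2g4a they were 9930104L06Rik (0.88 and 0.35), Ptgr2 (0.87 and 0.41), a reductase of prostaglandin breakdown, and Rpe (0.83 and 0.50). All were picked as the highest among the genes tested, and the correlations were not tested.

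Of 25 other prostanoid genes, 15 were tested in scRNA-seq and none was called after LPS, where the fold changes had a median of -0.11 beside -0.01 over all genes. Between RAW_Mock and the mesenchymal progenitors 5 were called higher and 7 lower, where 13.1% of all genes were called higher and 25.1% lower. Those higher were Hpgds, the haematopoietic prostaglandin D2 synthase (9.40, SE 0.63), the secreted phospholipase Pla2g5 (10.03, SE 0.94), the prostacyclin receptor Ptgir (3.18, SE 0.36), the exporter Abcc4 (1.42, SE 0.29) and Pla2g2e (2.91, SE 1.02). Lower in RAW_Mock were the prostaglandin transporter Slco2a1 (-11.70), Fam213b (-10.70), the receptors Ptgfr (-9.93) and Tbxa2r (-7.54), Cbr1 (-1.89), Pla2g6 (-1.66) and Ptgr1 (-1.59). Adjusted p-values of the 12 lay between 9.98e-06 and 0.0431. Fitted values of genes with few or no counts in one of the groups depend on edgeR's prior count. In Live-seq Hpgds (10.19, adjusted p = 0.028) and Slco2a1 (-12.88, adjusted p = 0.0414) were called.

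Between IBA and ASPC_Pre in scRNA-seq, Hpgds was higher in IBA (5.54, SE 1.08), and Fam213b (-4.50), Ptgir (-3.46) and Slco2a1 (-2.29) were lower, 4 of 15 tested, where 3.77% of all genes were called higher and 7.61% lower. The macrophage markers summed to between 8.07 and 607 CPM in the scRNA-seq IBA sums against between 51.3 and 54.99 CPM in ASPC_Pre, with none of the 10 at 0 in either, and their part in the value of Hpgds was not tested. Live-seq called none of 13. Of 6 tested genes of the leukotriene branch, which uses the same arachidonic acid, 4 were called higher in RAW_Mock than in the mesenchymal progenitors, beside the 13.1% of all genes. They were the receptor Cysltr1 (9.64), the 5-lipoxygenase activating protein Alox5ap (7.38), Mgst2 (4.03) and the leukotriene C4 synthase Ltc4s (2.68), with adjusted p between 0.00023 and 0.0271. After LPS none of the 6 was called in scRNA-seq, and all 6 had a negative log2 fold change, with a median of -1.27.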

How the data were processed

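The deposited values are raw read counts per gene and cell. Per the labels and the study's methods, the authors sequenced full-length Smart-seq2 complementary DNA, aligned the first read of 75 bp to mm10 (GRCm38) with STAR 2.6.1c after bcl2fastq 2.19.1, and counted unique reads per gene with HTSeq without regard to strand. There were no molecular identifiers. All 1012 cells were used, and every column of the table could be tied to a sample.

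Left out of the counts were 20 genes that the study saw in its negative controls and 85 genes of ribosomal proteins, a median of 23.9% to 24.7% of a cell's counts by technique, and 30347 features were kept. CPM refers to the kept counts. Sums over the cells of a batch and state needed 3 cells or more, which left out the single wild-type RAW_Mock cell. A gene was tested if some scRNA-seq state had 2 or more counts of it in no fewer than 15% of cells, and if it passed filterByExpr (minimum count 2, proportion 0.05). The main test was the quasi-likelihood test of edgeR 4.0.16 (R 4.3.3, TMM scaling, state and batch as terms, 1 fit per technique) with Benjamini-Hochberg adjustment over all genes. A gene was called at an adjusted p under 0.05 and a log2 fold change beyond 1. The comparison of techniques had no batch term. The fits were tested on simulated counts of the real genes, where the Live-seq fit of LPS called no changed gene, so that a lack of calls there says little. Alternatives used DESeq2 1.42.0, limma 3.58.1 on mean cell values (pseudocount 1 CPM), other filters, other sums, cells sampled down to 50000 counts and each batch left out. Exact permutation tests were two-sided and ran in Python 3.11.15 (scipy 1.17.1).

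The batch is the replicate block, since the labels give states of one technique the same batch. The deviations of sums that share a batch correlated by 0.287 (8_8), 0.460 (9_1) and 0.522 (scRNA) in scRNA-seq, and by 0.214 (6), 0.0667 (7), 0.00468 (8_8) and 0.109 (9_4) in Live-seq. All 10 members are named in each comparison that tests them, and of the other lists the genes called. The members and lists were chosen with earlier results of these data known. Gene positions are from GENCODE M21, which matched 30340 features. Promoter windows are from RefSeq (GRCm38.p6) and hold the 250 bases before the start, of the 300 bases planned.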

Additional observations from a re-analysis of the deposited data

Results flagged for a closer look

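Among 17 groups of 4 or 5 Live-seq sums in which a member had counts, 4 held a sum far from the others, judged by its gap beside the group's range. A group with counts in 1 sum alone is always flagged by this rule, as for Ptger2 and Ptges below. No rate expected by chance can therefore be given. Ptger2 had 17.3 CPM in the RAW_LPS sum of batch 5Reseq, the wild-type cells, and 0 in the other 4 RAW_LPS sums. Ptges3 had 1536 CPM in the RAW_LPS sum of batch 6, which holds 4 cells, against at most 677 CPM in the others. Ptgs1 had 87.4 CPM in the RAW_LPS sum of batch 8_8, with all of its counts in 1 of 9 cells, against at most 21.6 CPM in the others. Ptges had 6.64 CPM in the RAW_Mock sum of batch 8_8 and 0 in the other 3 sums. The part of single cells in these values was not tested.

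Ptger4 was higher in IBA than in ASPC_Pre in 2 of 2 Live-seq batches, by a mean of 1.76 on the log2(CPM + 1) scale, and lower in 2 of 2 scRNA-seq batches, by a mean of -1.40. The difference between the techniques was not tested.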

How the results depend on the processing

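After LPS in scRNA-seq, 0 members were called, against 3 by DESeq2 (Ptgs1, Ptgs2, Ptges), 2 with cells sampled down and 2 with limma on mean cell values (both Ptgs1, Ptgs2), and 1 each with the edgeR 4 fit (Ptgs1), no gene filter (Ptgs1) and only the states compared (Ptgs2). In Live-seq, DESeq2 and sampled-down cells each called 1 (Ptgs2). For RAW_Mock against mesenchymal progenitors the 2 scRNA-seq calls became 4 under DESeq2, the edgeR 4 fit, no gene filter, sampled-down cells and limma, settings that called 39.3%, 42.5%, 19.4%, 37.5% and 41.9% of all genes, and 1 to 4 with a batch left out, and limma called 1 in Live-seq (Ptges, -4.26, adjusted p = 0.0295). For IBA against ASPC_Pre the 2 scRNA-seq calls became 0 to 4 with a batch left out. Without the replicate block, RAW_Mock against mesenchymal progenitors had 3 members called in scRNA-seq, Ptgs1 joining at -1.57 (adjusted p = 0.0427). Over all genes, the calls after LPS in scRNA-seq, 1.25% of genes, became 711 genes with DESeq2, 429 with the edgeR 4 fit, 253 with no filter, 455 sampled down, 481 with limma, 516 with only the states compared, 35 without the block and 0 to 24 with a batch left out. The cause was not tested.

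Values of single members changed sign as follows. For Live-seq RAW_LPS against RAW_Mock, Ptges was 0.0306 sampled down, 0.0234 with the edgeR 4 fit, 0.82 with limma, 1.44 without the replicate block, 5.00 with only the states compared, 1.88 with sums from 1 cell and 2.31 with sums of at least 10 cells. Ptger4 was -0.543 without the block, Pla2g4a 0.57 with sums from 1 cell, and Ptges2 -0.0685 with sums of at least 10 cells. For Live-seq IBA against ASPC_Pre, Ptges2 was 0.0760 with DESeq2, 0.333 sampled down, 0.000514 in cells within the study's limits, 0.175 with the edgeR 4 fit, 0.0199 with control and ribosomal genes kept and 0.262 with only the states compared, and Ptgs1 was -0.43 without the block and -0.845 with only the states compared. For scRNA-seq RAW_LPS against RAW_Mock, Ptgis was -0.26 with the edgeR 4 fit and -0.137 without the block, and Ptges3 -0.0839 with limma. For the LPS response, Live-seq minus scRNA-seq, Ptger4 was -0.360 sampled down, -0.105 with the edgeR 4 fit, -0.66 with limma and -1.71 without the block. Ptgis was 0.0563 with the edgeR 4 fit, Ptges 0.087 with limma, 0.331 with sums from 1 cell and 0.558 with sums of at least 10, where Ptgs1 was -0.508 and Pla2g4a -0.0664. For Live-seq against scRNA-seq, limma gave Ptgs1 -0.447, Ptges -0.424 and Pla2g4a -0.137, sums from 1 cell gave Pla2g4a -0.0123, and the replicate block gave Ptges2 0.025 and Ptger4 0.442. Of ratios with no test, ASPC_Post over ASPC_Pre was 1.02 for Ptges3 (scRNA-seq) and 0.913 for Ptger4 (Live-seq) sampled down, and 1.07 for Ptges2 (scRNA-seq) with cells weighted equally. In IBA after sampling, Ptgs1 was 1.14 at 4 h sampled down, and 1.01 at 1 h and 1.14 at 4 h with cells weighted equally, and Ptgis was 0.863 at 4 h sampled down.

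Leaving out a batch changed the sign of these log2 values. The LPS response, Live-seq minus scRNA-seq, ranged over -0.209 to 0.628 (Pla2g4a), -1.91 to 5.17 (Ptger4), -2.88 to 7.64 (Ptges), -3.27 to 0.616 (Ptgis), -0.139 to 2.37 (Ptgs1) and -0.0536 to 5.28 (Ptgs2). Live-seq IBA against ASPC_Pre ranged over -1.98 to 0.887 (Ptges), -1.33 to 0.657 (Ptges2), -0.193 to 0.539 (Ptges3) and -0.493 to 6.89 (Ptgs1). Live-seq RAW_LPS against RAW_Mock ranged over -0.491 to 0.0600 (Pla2g4a), -0.716 to 6.75 (Ptger4), -1.97 to 8.24 (Ptges) and -3.78 to 0.825 (Ptgis). Live-seq RAW_Mock against mesenchymal progenitors ranged over -0.877 to 2.24 (Ptges2) and -3.16 to 0.488 (Ptgis). Live-seq against scRNA-seq ranged over -0.216 to 0.371 (Pla2g4a), -1.26 to 0.849 (Ptges), -0.572 to 0.151 (Ptges2) and -0.475 to 1.2 (Ptgs2). In scRNA-seq, IBA against ASPC_Pre ranged over -3.17 to 1.53 (Ptgs2), RAW_LPS against RAW_Mock over -0.644 to 0.0240 (Ptges2), -0.0146 to 0.192 (Ptges3) and -0.499 to 0.966 (Ptgis), and RAW_Mock against mesenchymal progenitors over -1.35 to 0.247 (Ptger4). The sign of the LPS difference of Ptgs2 and Ptgs1 held in every alternative run in both techniques. The exact test of Ptgs2 in Live-seq no longer passed under the replicate block (exact p = 0.125, the smallest it allows), an alternative chosen after the data were seen. The median total was 506778.5 counts in a Live-seq library and 467677 in scRNA-seq.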

Other observations

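Wild-type RAW264.7 cells and the RAW-G9 clone can be set side by side after LPS in Live-seq, although the wild-type cells are all of 1 batch, so that line and batch cannot be told apart. Ptgs2 was at 702 CPM in the 11 wild-type cells, 9 of which had counts, and at 1123 CPM in the 39 RAW-G9 cells, 29 of which had counts. By batch the RAW-G9 sums of Ptgs2 were 379, 1479, 395 and 824 CPM, a range that holds the wild-type value. Ptgs1 was at 21.6 CPM in the wild-type cells and 9.54 CPM in the RAW-G9 cells, whose sums ran from 0 to 87.4 CPM. Many single progenitor cells of scRNA-seq had counts of both cyclooxygenases, each of which was detected in most of these cells. In scRNA-seq, 129 IBA cells had counts of both Ptgs1 and Ptgs2, 19 of Ptgs1 alone and 4 of Ptgs2 alone, and of 60 ASPC_Pre cells 49 had both. In Live-seq, 16 of 44 IBA cells and 33 of 61 ASPC_Pre cells had both. Whether the genes met in a cell more often than their separate detection gives was not tested.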
